A study of Rattus norvegicus with 8 samples.

Results

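A set of 5 genes for potassium channels that shape the resting and repolarising phases of the cardiac action potential were followed in sinoatrial node RNA. They are Kcnh2, Kcnq1, Kcnj2, Kcnj3 and Kcnj11, taken by their Ensembl rat identifiers from a table of expected counts, so that the set holds 5 of the 32285 genes listed. All 5 passed the filter on low counts and were among the 16313 genes tested.

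The node came from Dahl/Salt Sensitive rats (SS/JrHsdMcwiCrl), an inbred strain that becomes hypertensive on salt-rich food. The 4 Control libraries were from rats given 0.4% NaCl chow and the 4 HFpEF libraries (heart failure with preserved ejection fraction) from rats given 8% NaCl chow, each for 11 weeks. Both groups carry the salt-sensitive background, and no group ate the salty chow without the disease model, so salt intake, blood pressure and heart failure cannot be told apart. The rats' ages are not among the labels, nor is it said whether each library was made from 1 animal. The tests therefore judge group differences against the spread between these libraries, which may not be the spread between animals. In whole-tissue RNA, fewer cells of a type and less RNA per cell cannot be told apart either.

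Potassium channels carry outward current that ends each action potential and holds the membrane near the potassium equilibrium potential. In the node, which fires spontaneously, the slow decay of delayed rectifier current after each beat is one of the processes that allow the next diastolic depolarisation, and the scarcity of inward rectifier current lets the membrane drift. The muscarinic potassium channel, opened by G protein beta-gamma subunits, slows firing under vagal tone, and the ATP-sensitive channel links membrane potential to the energy state of the cell.

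Total counts ran from 31774820 to 38889395 per library. HFpEF replicate 2 had the fewest. The 5 channels had between 190 and 5178 counts in every library, and all 8 counts of each gene were whole numbers (within 0.005). The values below are normalised CPM, that is counts per 1000000 of the TMM-scaled library total. Gene lengths were not used here, so levels are compared between libraries and not between channels. The symbols of the 5 genes come with the definition of the set. The reference gene table used here carried 0 Ensembl identifiers, so this pairing was not checked against it, and markers of nodal, atrial, fibroblast or other cells were not analysed here.

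None of the 5 channels was called different between HFpEF and Control after adjustment over all 16313 genes (0 of 5, edgeR quasi-likelihood test, Benjamini-Hochberg adjusted p under 0.05), where 1.94% of tested genes were called and 0.398% were called lower. The largest differences were in Kcnj11, with a mean 21.7% lower in HFpEF, and in Kcnh2, with a mean 14.3% lower. In both, every HFpEF library lay below every Control library, a pattern found in 5.73% of tested genes. The same 2 genes had an unadjusted p under 0.05 with a lower HFpEF level, as did 8.36% of tested genes (19.6% in either direction). DESeq2, run as an alternative, gave 0 calls in 4 of the channels and called Kcnh2 lower (DESeq2 adjusted p = 0.0295), with 2.4% of tested genes called lower by it.

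**Figure D1:**
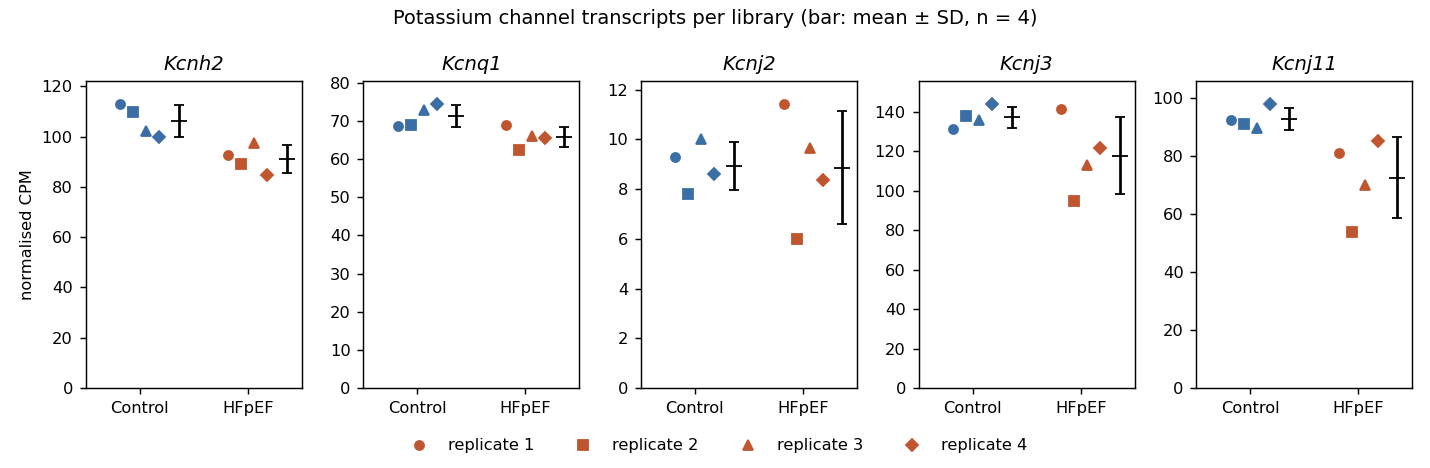
Normalised CPM (vertical axes, each from 0) of the 5 channels in the 4 Control (blue) and 4 HFpEF (orange) libraries, with marker shapes for replicate numbers and black bars for mean ± SD (n = 4). The groups do not overlap in Kcnh2 and Kcnj11, overlap in Kcnq1, Kcnj2 and Kcnj3, and the HFpEF points spread widely in Kcnj2, Kcnj3 and Kcnj11.

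Kcnh2 (ENSRNOG00000009872) encodes the pore subunit of the rapid delayed rectifier, the ERG channel. It stood at 113, 110, 102 and 99.96 CPM in Control replicates 1 to 4 and at 92.8, 89.0, 97.5 and 84.8 CPM in HFpEF replicates 1 to 4. The lowest Control library and the highest HFpEF library stood at 99.96 and 97.5 CPM, so the groups were separate but close. The mean was 106 ± 6.20 CPM in Control and 91.1 ± 5.41 CPM in HFpEF (SD, n = 4 each). The log2 fold change was -0.22 with a standard error of 0.07 and a 95% interval of -0.37 to -0.07 (edgeR unadjusted p = 0.00774, adjusted p = 0.116). Of the tested genes, 6.68% had a smaller p. The estimate moved little when any 1 library was left out, from -0.26 to -0.19, and its adjusted p stayed between 0.107 and 0.289 in those fits.

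Kcnq1 (ENSRNOG00000020532) encodes the pore subunit of the slow delayed rectifier, a current that grows with beta-adrenergic drive. Control replicates 1 to 4 held 68.6, 68.9, 72.9 and 74.5 CPM and HFpEF replicates 1 to 4 held 69.0, 62.4, 66.1 and 65.6 CPM. Of the HFpEF libraries, 3 lay below the whole Control range, and HFpEF replicate 1 sat just inside its lower end. With means of 71.2 ± 2.89 and 65.8 ± 2.72 CPM (SD, n = 4 each), the HFpEF mean was 7.64% lower. The log2 fold change was -0.11 with a standard error of 0.05 and a 95% interval of -0.24 to 0.01 (edgeR unadjusted p = 0.0627, adjusted p = 0.283). The interval leaves room for a reduction to 0.849-fold and reaches 1.01-fold at its other end. In RefSeq's GRCr8 annotation, which is not the build of these counts, 1 long noncoding RNA locus overlaps Kcnq1 and 0 loci overlap the other channels. The strand setting of the counting is not given in the sources used here, so reads of such an overlapping transcript could be counted with Kcnq1.

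Kcnj2 (ENSRNOG00000004720) encodes Kir2.1, the main strong inward rectifier of working myocardium, which stabilises the resting potential. It had the fewest counts of the set, 290 to 383 in Control and 190 to 417 in HFpEF. Its level was 9.28, 7.79, 10.03 and 8.63 CPM in Control replicates 1 to 4 and 11.4, 6.01, 9.66 and 8.39 CPM in HFpEF replicates 1 to 4. The highest and the lowest of the 8 libraries were both HFpEF libraries, replicates 1 and 2. Their exact 95% Poisson intervals, 10.4 to 12.6 and 5.18 to 6.92 CPM, did not meet, and such intervals cover counting error only. The means were 8.93 ± 0.955 and 8.87 ± 2.28 CPM (SD, n = 4 each), and the log2 fold change was -0.01 with a 95% interval of -0.42 to 0.40 (edgeR unadjusted p = 0.961, adjusted p = 0.985). A change of up to 0.75-fold or 1.32-fold therefore lies within that interval, and no direction was resolved for this gene. Without HFpEF replicate 2 the estimate was 0.14, and without HFpEF replicate 1 it was -0.16.

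Kcnj3 (ENSRNOG00000005369) encodes Kir3.1, a subunit of the muscarinic potassium channel through which acetylcholine slows the node. Its levels in Control replicates 1 to 4 were 131, 138, 136 and 144 CPM, and in HFpEF replicates 1 to 4 they were 141, 94.8, 113 and 122 CPM. HFpEF replicate 1 lay among the Control libraries, and the other 3 lay below all of them. The mean was 137 ± 5.33 CPM in Control and 118 ± 19.3 CPM in HFpEF (SD, n = 4 each), 14.1% lower, which is nearly the same size of difference as in Kcnh2 with a wider spread. The log2 fold change of -0.22 had a standard error of 0.11 and a 95% interval of -0.47 to 0.03 (edgeR unadjusted p = 0.0747, adjusted p = 0.308). Its size rested in part on single libraries. It was -0.12 without HFpEF replicate 2 (edgeR adjusted p = 0.504) and -0.32 without HFpEF replicate 1 (edgeR adjusted p = 0.103).

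Kcnj11 (ENSRNOG00000021128) encodes Kir6.2, the pore of the ATP-sensitive potassium channel, which opens when cellular ATP falls. Control replicates 1 to 4 held 92.3, 91.0, 89.8 and 98.1 CPM, a narrow band. HFpEF replicates 1 to 4 held 81.2, 53.8, 70.2 and 85.2 CPM, all below that band, with replicate 2 at 58.0% of the Control mean and replicate 4 at 91.8%. The means were 92.8 ± 3.66 and 72.6 ± 14.0 CPM (SD, n = 4 each). The estimate was the largest of the set, at -0.35 on the log2 scale (standard error 0.13, 95% interval -0.64 to -0.06), with an edgeR unadjusted p of 0.0223 and adjusted p of 0.181. A lower log2 fold change was found in 7.14% of tested genes. Without HFpEF replicate 2 the estimate was -0.23, with an adjusted p of 0.193 in edgeR.

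**Figure D2:**
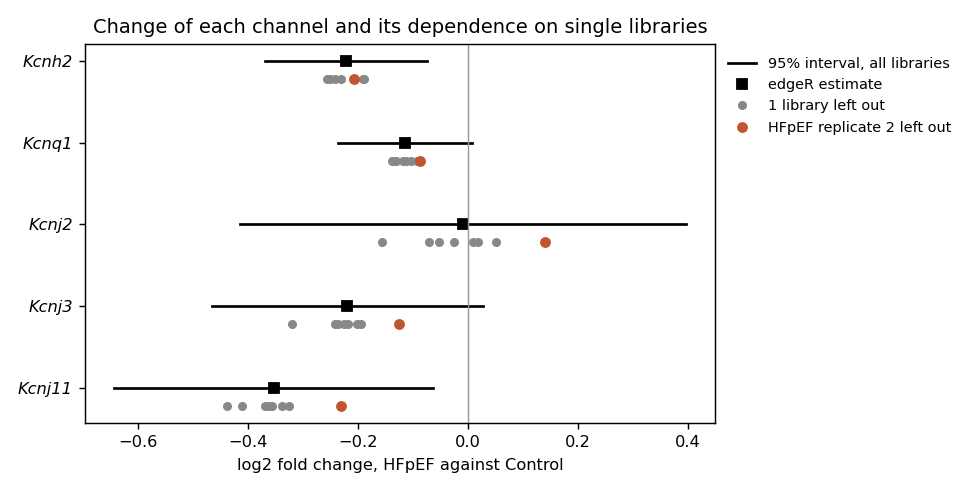
Log2 fold change of each channel, HFpEF against Control (horizontal axis), from the edgeR fit on all 8 libraries (black squares, with 95% intervals as lines) and from fits without 1 library (grey dots, orange for the fit without HFpEF replicate 2). The intervals of Kcnh2 and Kcnj11 lie below 0 before adjustment for the 16313 genes, and the estimates of Kcnj2 fall on both sides of 0.

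Read as a list, all 5 channels had a log2 fold change below 0, where 50.9% of tested genes did. The value for Kcnj2 was -0.01, so this count amounts to 4 channels with a lower estimate and 1 near 0. The median was -0.22 over the 5 channels and -0.00409 over all tested genes. Without HFpEF replicate 2 the count was 4 of 5 and the median -0.12, with estimates of -0.21, -0.09, -0.12 and -0.23 for Kcnh2, Kcnq1, Kcnj3 and Kcnj11 and of 0.14 for Kcnj2. Kcnj3, Kcnj11 and Kcnq1 thus had smaller estimates without that library, and Kcnh2 nearly the same one.

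The channels also differed in how much the HFpEF libraries varied. In Control the coefficient of variation between libraries was 5.84% for Kcnh2, 4.06% for Kcnq1, 3.89% for Kcnj3 and 3.95% for Kcnj11, and it was 10.7% for the thinly counted Kcnj2. Without Control replicate 4 it was 2.49% for Kcnj3 and 1.40% for Kcnj11. In HFpEF the 2 delayed rectifier genes had similar values, 5.94% for Kcnh2 and 4.14% for Kcnq1. The 3 inward rectifier genes had higher values, 25.7% for Kcnj2, 16.4% for Kcnj3 and 19.3% for Kcnj11. Counting alone would give 1.60% for Kcnj3, 1.79% for Kcnh2, 2.05% for Kcnj11, 2.11% for Kcnq1 and 5.93% for Kcnj2 in HFpEF.

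**Figure D3:**
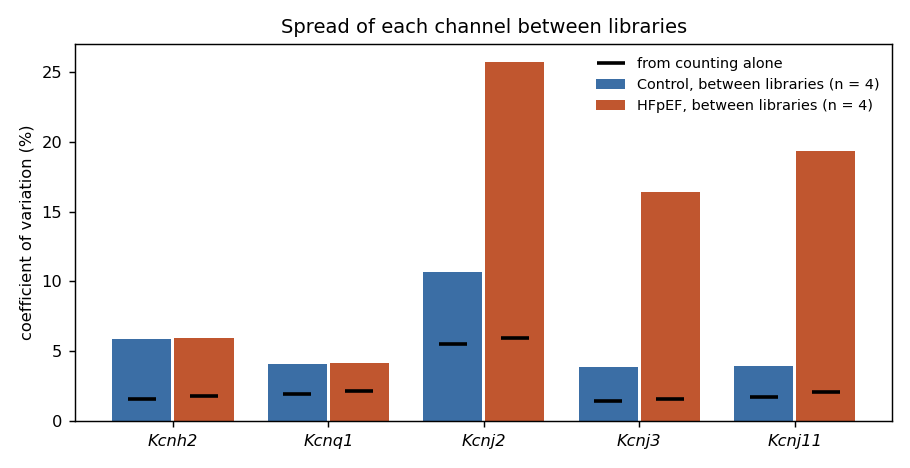
Coefficient of variation of normalised CPM between the 4 libraries of each group (bars, percent, blue for Control and orange for HFpEF) with the part given by counting alone (black marks). The bars of Kcnh2 and Kcnq1 are alike in both groups, and those of Kcnj2, Kcnj3 and Kcnj11 are taller in HFpEF.

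The variance of log2 CPM in HFpEF was 28.1 times that in Control for Kcnj11 and 18.4 times for Kcnj3. The median over tested genes was 1.81, and 3.74% and 6.11% of tested genes had a higher ratio than these 2 channels. For Kcnj2 the ratio was 6.41, which 18.6% of tested genes exceeded, and for Kcnh2 and Kcnq1 it was 1.04 and 1.05. Such ratios of 2 variances, each from 4 libraries, are imprecise, and they are given as a description with no test. HFpEF replicate 2 carried much of the width in Kcnj11 and Kcnj2 but not all of it. Without it the coefficient of variation in HFpEF was 9.83% for Kcnj11, 11.5% for Kcnj3, 15.6% for Kcnj2 and 2.74% for Kcnq1. Without HFpEF replicate 1 the coefficient was 22.5% for Kcnj11, 12.5% for Kcnj3, 23.1% for Kcnj2 and 3.15% for Kcnq1.

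HFpEF replicate 2 was the lowest of the 8 libraries in 4 of the 5 channels, all but Kcnh2, and it was the lowest in 19.2% of tested genes. It stood at 67.2% of the Control mean for Kcnj2, 69.1% for Kcnj3 and 58.0% for Kcnj11. For the delayed rectifier genes Kcnh2 and Kcnq1 it stood at 83.8% and 87.6%. HFpEF replicate 1 was the highest HFpEF library for Kcnq1, Kcnj2 and Kcnj3, at 96.9%, 128% and 103% of the Control mean. In Kcnh2 the order was another one, with replicate 3 highest at 91.8% and replicate 4 lowest at 79.9%. What sets HFpEF replicate 2 apart in these channels was not tested.

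**Figure D4:**
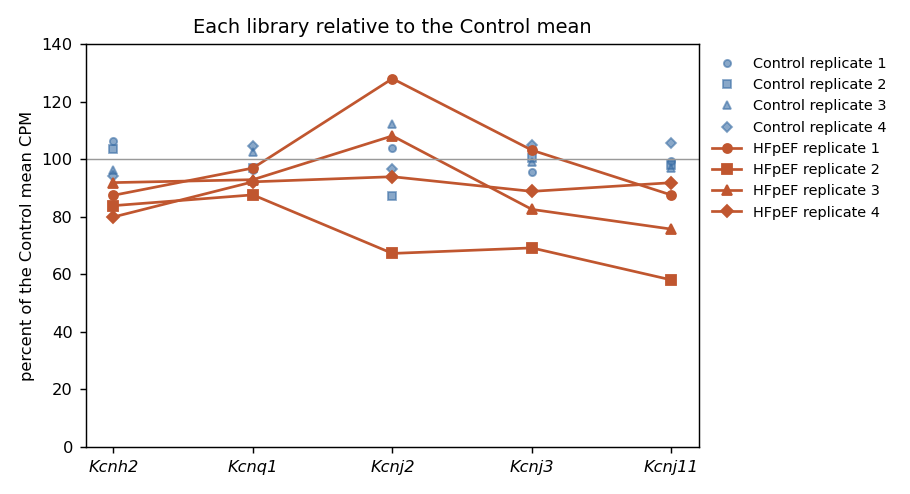
Level of each channel in each library as a percent of the Control mean CPM (vertical axis), with HFpEF libraries in orange, joined by lines to follow 1 library across channels, and Control libraries in blue. HFpEF replicate 2 runs lowest from Kcnq1 to Kcnj11 and HFpEF replicate 1 lies above the Control mean in Kcnj2 and Kcnj3.

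By Pearson's r of log2 CPM over the 8 libraries, Kcnj3 and Kcnj11 had the most similar profile, at 0.925, and Kcnq1 and Kcnj3 came next, at 0.873. The order of these 2 pairs depended on the measure. Spearman's rho was 0.690 for Kcnj3 and Kcnj11 and 0.905 for Kcnq1 and Kcnj3, and r without HFpEF replicate 2 was 0.750 and 0.777. For deviations from each group's mean r was 0.880 and 0.789. The lowest r over the 8 libraries was that of Kcnh2 and Kcnj2, 0.209, but by rho Kcnj2 and Kcnj11 were the least alike (0.0238). These values describe likeness over libraries of both groups, which also differ in total count, and no p is attached to them. Except for the deviations from group means, they include the difference between the groups. Pairs with other genes were not computed, so whether such likeness is particular to these channels was not tested. Kcnj2 resembled Kcnj3 (r = 0.677) largely through HFpEF replicate 2, as r was 0.0729 without it.

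To set the channels against each other, the ratio of their counts was taken within each library, a measure that does not depend on library scaling. No difference in the 10 ratios passed adjustment, and the HFpEF and Control ranges overlapped in all 10 (exact two-sided permutation tests over 70 splits, adjusted over the 10 ratios). The smallest p that 70 splits allow is 0.0286, and the smallest adjusted p that a single ratio could reach alone is 0.286. At least 6 of the 10 ratios would have had to reach that floor for any to pass 0.05, so the lack of a call says little. The design thus did not resolve whether any channel differed more than another between the groups.

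The ratio that came nearest was Kcnq1 to Kcnj11. It was 0.744, 0.757, 0.812 and 0.759 in Control replicates 1 to 4 and 0.850, 1.16, 0.942 and 0.770 in HFpEF replicates 1 to 4. Only HFpEF replicate 4 lay within the Control range, and the others lay above it. The mean log2 ratio was higher by 0.26 in HFpEF (exact permutation p = 0.0571, adjusted p = 0.476). Without HFpEF replicate 2 the difference was 0.15.

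The 2 delayed rectifier genes stood at a Kcnh2 to Kcnq1 ratio of 1.65, 1.59, 1.40 and 1.34 in Control replicates 1 to 4. In HFpEF replicates 1 to 4 it was 1.35, 1.43, 1.47 and 1.29, so that Control replicates 3 and 4 were within the HFpEF range and replicates 1 and 2 above it. The mean log2 ratio differed by -0.11 (exact permutation p = 0.286, adjusted p = 0.476), and by -0.06 without Control replicate 1.

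The Kcnj3 to Kcnj11 ratio, which sets the muscarinic against the ATP-sensitive channel gene, was 1.42, 1.51, 1.51 and 1.47 in Control replicates 1 to 4. In HFpEF replicates 1 to 4 it was 1.74, 1.76, 1.61 and 1.43, with 3 libraries above the Control range and replicate 4 inside it. The mean log2 ratio was higher by 0.14 (exact permutation p = 0.114, adjusted p = 0.476). Kcnh2 to Kcnj3 had the smallest difference, 0.01 on the log2 scale (exact permutation p = 0.886, adjusted p = 0.886).

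The remaining 6 ratios had log2 differences between -0.18 and 0.33. The highest, 0.33, was that of Kcnj2 to Kcnj11, with exact permutation p = 0.143 and adjusted p = 0.476. The lowest, -0.18, was that of Kcnh2 to Kcnj2, with exact permutation p = 0.429 and adjusted p = 0.571. It was -0.05 when HFpEF replicate 1 was left out, -0.34 when HFpEF replicate 2 was, and -0.10 when Control replicate 2 was.

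**Figure D5:**
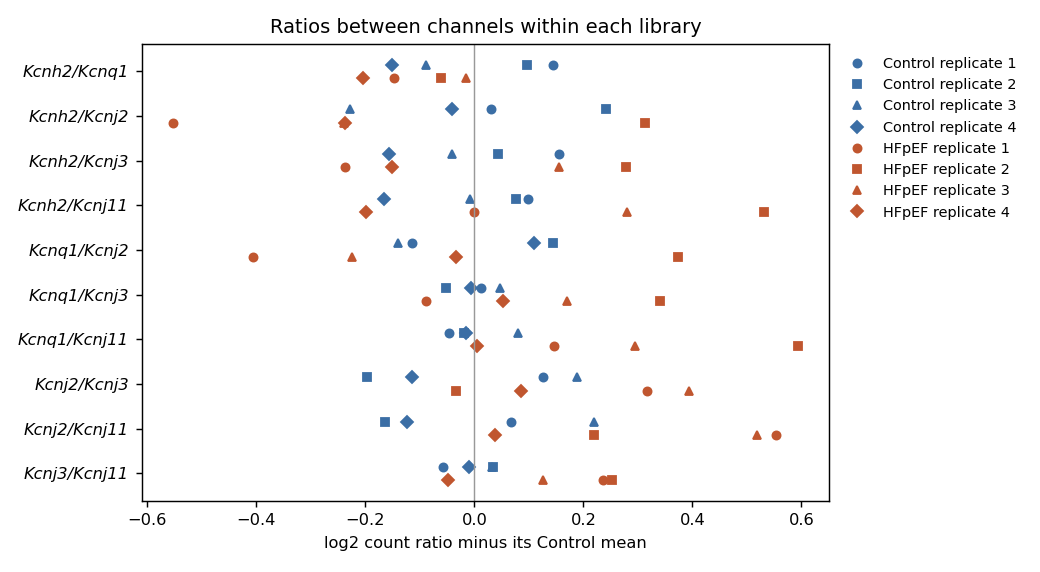
Log2 ratio of the counts of 2 channels in each library, minus the mean of the Control libraries (horizontal axis), for the 10 pairs, with Control in blue, HFpEF in orange and marker shapes for replicate numbers. The groups overlap in every pair, and the HFpEF libraries of Kcnq1/Kcnj11 and Kcnj3/Kcnj11 lie mostly to the right of Control.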

How the data were processed

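The authors deposited 1 table of expected counts per Ensembl gene, estimated by RSEM and not normalized, for 8 libraries of rRNA-depleted total RNA, per the labels' protocols. Bowtie2 2.1.0, RSEM 1.2.15 and build rn6 are named in the submitters' processing notes. Which annotation, read filters or strand option they used is not given in these sources. Columns were matched to libraries by title. The 5 channels, and the tests, were chosen with earlier results of these data known. Lists of partner genes and cell type markers were set by symbol and not run, because identifiers of other genes were not paired with symbols.

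Counts were rounded, filtered with filterByExpr (16313 genes, holding 99.95% of counts), TMM-scaled and compared with edgeR 4.0.16 (R 4.3.3, quasi-likelihood test, robust = FALSE, two-sided, Benjamini-Hochberg adjustment over all tested genes, threshold 0.05). Standard errors and 95% intervals came from the quasi-likelihood F statistic. Ratios used log2 of counts plus 0.5. The text names the 5 members by rule. A count of 0 would allow 3 counts, 0.0771 to 0.0944 CPM, counting error only. The fitting code was tested on simulated data, with planted changes larger than those estimated for the 5 channels. How well it finds changes as small as theirs was not tested. The tested alternatives comprised limma-voom (limma 3.58.1), DESeq2 1.42.0, RLE and upper quartile scaling, other filters, robust = TRUE, a replicate block and single libraries left out. Leaving out libraries for the coefficients of variation was chosen after seeing the data. The labels do not say that replicate numbers pair the libraries, so the numbers were not taken as pairs. Same-numbered libraries' deviations from group means correlated at -0.162 to 0.068. Differently numbered libraries were not compared in this way, so these values do not decide the pairing.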

Additional observations from a re-analysis of the deposited data

How the results depend on the processing

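Kcnh2, Kcnq1, Kcnj3 and Kcnj11 had an estimate below 0 in each of 16 alternatives. Kcnh2 passed the threshold in 1 of them (DESeq2, log2 fold change -0.22, adjusted p = 0.0295), and its adjusted p ran from 0.0295 to 0.289 over all 16. The cause of the DESeq2 call was not tested. Kcnj2 ran from -0.16 to 0.14 with 1 library left out and had a positive estimate without Control replicate 1 (0.00903), Control replicate 3 (0.05), HFpEF replicate 2 (0.14) or HFpEF replicate 4 (0.02). The HFpEF minus Control difference in log2 ratio changed sign with 1 library left out in Kcnh2/Kcnj3 and Kcnq1/Kcnj2. It ran from -0.0777 to 0.0942 for Kcnh2/Kcnj3 (0.0115 with all libraries). For Kcnq1/Kcnj2 it ran from -0.221 to 0.0391 (-0.0722 with all libraries). Several others moved by over 1.5 times without 1 library, with extremes of 0.0267 (without HFpEF replicate 2) and 0.271 (without HFpEF replicate 4) for Kcnh2/Kcnj11, 0.0446 (without HFpEF replicate 2) and 0.188 (without HFpEF replicate 1) for Kcnq1/Kcnj3, and 0.123 (without HFpEF replicate 3) for Kcnj2/Kcnj3. No other ratio changed sign, and none of the 10 passed the threshold in any of 11 alternatives. The fits without 1 library held only 35 splits each. The replicate block (sign-flip test) held 16, too few for any p under 0.05, so no ratio could have passed there.

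The 316 genes called in all (251 higher, 65 lower) became 943 (668 and 275) at a threshold of 0.1, 1248 (856 and 392) with DESeq2 and 37 lower with limma-voom. The replicate block gave 6 called, 6 higher and 0 lower in edgeR, with 2568 genes at an unadjusted p under 0.05. With 1 library left out, 22 to 332 were called, 21 to 234 higher and 0 to 98 lower. Under the replicate block Kcnh2 stood at -0.22 (edgeR adjusted p = 0.212) and Kcnj11 at -0.37 (edgeR adjusted p = 0.201), and the block changed no call among the channels. Kcnj2 had the fewest counts, 190 to 417. Counting alone would give it a coefficient of variation of 5.93% in HFpEF, where 25.7% was found between libraries.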
